A study of Mus musculus with 4 samples.

Results

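LAR-type receptor phosphatases and the liprins that bind them were examined in Py8119 cells, a mammary tumour line from C57BL/6 mice that its labels call mesenchymal-like. The 9 genes, taken by symbol, were Ptprd, Ptprs and Ptprf for the phosphatases, Ppfia1, Ppfia2, Ppfia3 and Ppfia4 for the liprin-alphas, and Ppfibp1 and Ppfibp2 for the liprin-betas, out of 50600 genes in the deposited table. Total RNA was sequenced from cells overexpressing Mtss1 (2 libraries) and from control cells labelled hygro (2 libraries). All 4 libraries came from the same line grown in serum-supplemented IMDM without treatment. Whether each population was a clone or a pool, and which promoter drove Mtss1, is not stated in the sources used. The labels do not state whether a group's libraries were separate cultures, so the p-values rest on a library-to-library spread that may be only technical. In bulk RNA, fewer cells with a transcript and less of it per cell cannot be told apart.

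LAR-type phosphatases are cell surface receptors with immunoglobulin and fibronectin repeats outside the cell and a tandem pair of phosphatase domains inside it, of which the one nearer the membrane carries most of the activity. They bind heparan and chondroitin sulphate proteoglycans and, at synapses, a set of postsynaptic adhesion proteins, and they act in axon growth, synapse formation and cell-matrix adhesion. Liprin-alphas bind the membrane-distal phosphatase domain and hold it in scaffolds with ELKS (Erc1, Erc2), GIT and KANK proteins. Liprin-betas bind liprin-alphas and belong to the same cortical platforms near focal adhesions. Mtss1, an I-BAR protein that shapes membrane and binds actin, is a reported partner of LAR-type phosphatases, which is why the receptors and their scaffolds were followed here.

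The 3 phosphatase genes encode closely related proteins, so the stretch around the catalytic signature of the first phosphatase domain is shown to let the transcripts be compared there. These 90 coding bases (5′ to 3′, GRCm38, GENCODE M21) have capitals at every position where the 3 genes do not all carry the same base.
Ptprd: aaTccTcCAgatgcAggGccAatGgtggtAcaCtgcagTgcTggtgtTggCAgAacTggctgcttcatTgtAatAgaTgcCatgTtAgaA
Ptprs: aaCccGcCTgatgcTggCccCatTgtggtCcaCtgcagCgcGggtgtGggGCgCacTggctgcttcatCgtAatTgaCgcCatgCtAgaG
Ptprf: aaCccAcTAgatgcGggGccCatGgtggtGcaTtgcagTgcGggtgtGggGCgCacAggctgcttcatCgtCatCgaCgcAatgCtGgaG
The stretch covers coding bases 4624 to 4713 of Ptprd, 4609 to 4698 of Ptprs and 4582 to 4671 of Ptprf, in the longest complete coding sequence of each gene. Its exons lie within chr4:75957330-75981991 for Ptprd, chr17:56417460-56417628 for Ptprs and chr4:118212198-118212364 for Ptprf, each on the minus strand and with an intron inside. Ptprd differed from Ptprs at 19 of the 90 bases, Ptprd from Ptprf at 21, and Ptprs from Ptprf at 14, and the longest run identical between any pair was 17 bases. Over whole annotated transcripts, 0 of 24120 distinct stretches of 100 bases of Ptprd, 0 of 15968 of Ptprs and 0 of 9653 of Ptprf occurred in a transcript of another gene. A read of that length without mismatches therefore matches a single one of these genes among annotated transcripts.

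Values were CPM, reads scaled to a library of 1000000. Recovered depth was 15594209 and 16656638 reads with overexpression and 20617788 and 22081639 reads in control. Mtss1 read 118 and 119 CPM with overexpression, against 54.5 and 50.5 CPM in control, a log2 fold change of 1.16 ± 0.05 (SE), as a check of the labels. Of the mesenchymal markers 6 of 6 passed the expression filter (at least 1 CPM in at least 2 libraries), and of the epithelial markers 2 of 6 did. Those 2 were the keratin genes Krt8, at 367 and 368 CPM with overexpression against 562 and 608 CPM in control, and Krt18, at 234 and 235 CPM with overexpression against 286 and 285 CPM in control, both called lower. The 6 epithelial markers summed to between 601 and 603 CPM with overexpression and between 848 and 893 CPM in control, and their part in the results was not tested. Epcam and Krt5 were listed at 0 in every library, and Cdh1 and Krt14 reached at most 0.092 and 0.119 CPM. The 6 mesenchymal markers summed to between 12700 and 12800 CPM with overexpression and between 14900 and 15100 CPM in control. Of these, 2 were called higher, 3 were called lower and 1 did not pass the test, and their part was not tested either. Immune markers summed to between 0.214 and 0.283 CPM with overexpression and between 0.217 and 0.375 CPM in control, and 0 of 10 passed the filter. Endothelial markers summed to between 1.64 and 2.08 CPM with overexpression and between 1.66 and 1.71 CPM in control, with 1 of 6 past the filter. Over the whole table, 8273 of 12510 tested genes (66.1%) differed between the groups by limma on log2(CPM + 1) at an adjusted p under 0.05, with 31.9% higher and 34.2% lower under overexpression.

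Of the 9 genes, 5 passed the expression filter and 4 did not. Ptprd, Ptprs and Ppfia3 rose with Mtss1 overexpression and Ppfia1 and Ppfibp1 fell. All 5 were therefore called, but against a background of 66.1% of genes, or 77.5% of the 2472 genes that averaged at least 100 CPM and 63.3% of the others. For each of the 5, the overexpression and control libraries did not overlap, which also held for 81.6% of all tested genes. Ptprf, Ppfia2, Ppfia4 and Ppfibp2 were at or near the detection limit in both groups.

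**Figure D1:**
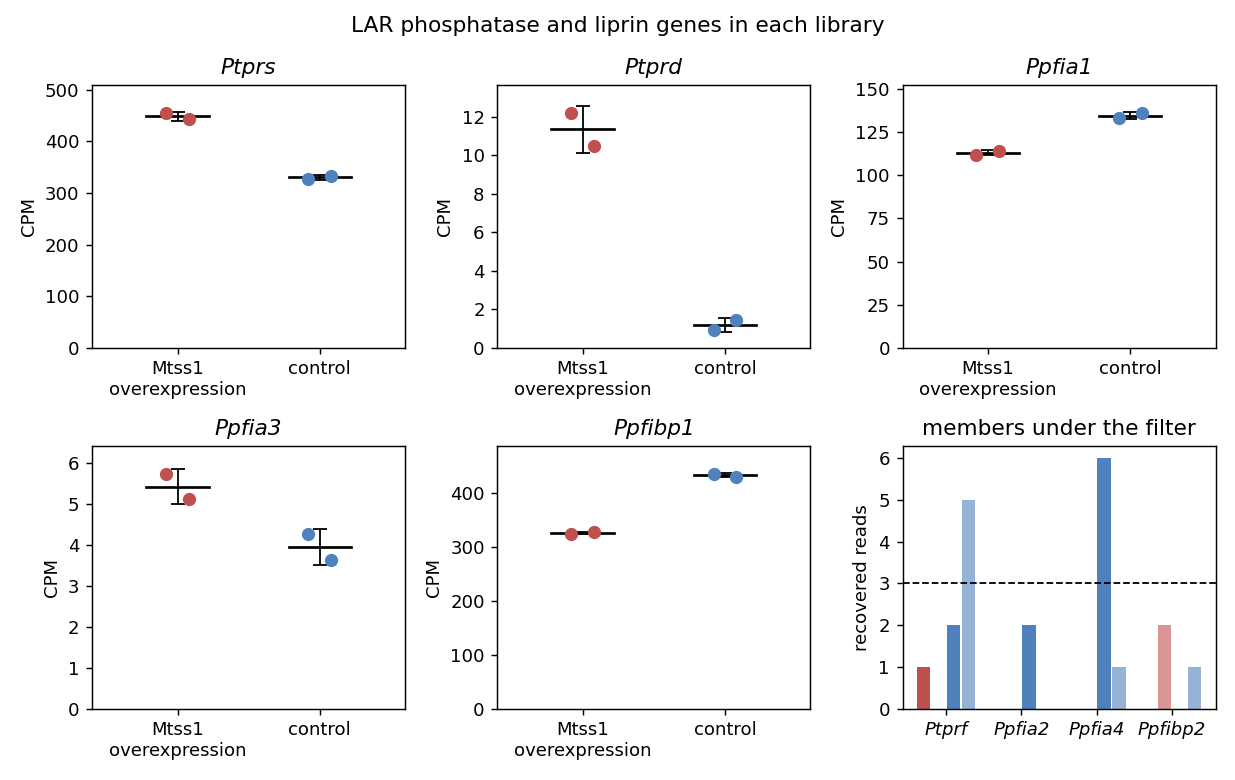
CPM of the 5 members past the filter (points, 1 per library; horizontal line, mean; bar, SD, n = 2) with Mtss1 overexpression in red and control in blue, and recovered reads of the 4 members under the filter (bars, left to right overexpression 1 and 2, control 1 and 2; dashed line, 3 reads). Ptprd stands at 12.2 and 10.5 CPM with overexpression against 0.931 and 1.43 CPM in control, and no group of points overlaps the other in the 5 CPM panels.

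Ptprd, the gene of the receptor PTP-delta, showed the widest separation. It read 12.2 and 10.5 CPM in overexpression 1 and 2, against 0.931 and 1.43 CPM in control 1 and 2. Both overexpression libraries stood far above both control libraries. These values rest on 194 and 176 reads with overexpression and on 19 and 31 reads in control. The mean was 11.4 ± 1.24 CPM with overexpression and 1.18 ± 0.351 CPM in control (SD, n = 2 each), a ratio of 9.63 between the means. On the log2(CPM + 1) scale, which understates the change of so low a gene, the log2 fold change was 2.51 ± 0.16 (SE, limma adjusted p = 5.5e-12). That change was larger in size than the changes of 99.2% of tested genes. The size depends on how low values are treated, being 1.40 with a pseudocount of 5 and 3.26 with limma-voom on recovered reads, and the call held in each of the 11 alternatives in which the gene was tested. It passed the filter through both overexpression libraries and control 2, and was not tested where every library had to reach 1 CPM. Ptprd covers 2270.7 kb of chromosome 4, from 75941238 to 78211961 on the minus strand (GRCm38), with 22 annotated transcripts.

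Of the 9 annotated genes within or across the ends of Ptprd, all were listed at 0 CPM in every library, and only B230208B08Rik, on the opposite strand, shared exon bases with it (7 bases). The reads counted for Ptprd therefore had no counterpart in an overlapping gene.

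Ptprs, the gene of PTP-sigma, a receptor for heparan and chondroitin sulphate chains, was the abundant phosphatase of these cells. It read 455 and 443 CPM with overexpression, against 327 and 334 CPM in control. The libraries of a group lay close together and the groups stood clearly apart. Its mean was 449 ± 8.90 CPM with overexpression and 330 ± 4.89 CPM in control (SD, n = 2 each), and the log2 fold change was 0.44 ± 0.03 (SE, limma adjusted p = 1.5e-10). It ranged from 0.42 to 0.48 over 12 alternative settings. By size this was a common kind of change here, larger than that of 68.1% of tested genes. Ptprs lies on chromosome 17 from 56412426 to 56476483 on the minus strand.

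Ptprf, the gene of LAR itself and the founding member of the family, was barely detected. It had 1 read in overexpression 1 and was listed at 0 in overexpression 2, against 2 and 5 reads in control 1 and 2. Its highest level was 0.23 CPM, in control 2, where 3 reads correspond to 0.138 CPM. At this depth no difference between the groups could be read. Ptprf lies on chromosome 4 from 118208213 to 118291405 on the minus strand, the same chromosome as Ptprd.

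Among the liprin-alphas, which link the receptors to cytoplasmic scaffolds, Ppfia1 was the abundant gene. Liprin-alpha1, its product, is the broadly expressed family member and acts at the cell edge and near focal adhesions. It read 112 and 114 CPM with overexpression, against 133 and 136 CPM in control. Both overexpression libraries lay below both control libraries. The mean was 113 ± 1.73 CPM with overexpression and 134 ± 2.43 CPM in control (SD, n = 2 each), a ratio of 0.842. The log2 fold change was -0.25 ± 0.04 (SE, limma adjusted p = 2.3e-05), between -0.26 and -0.21 over 12 alternatives, and 44.9% of tested genes changed by less. Ppfia1 lies on chromosome 7 from 144476758 to 144553729 on the minus strand.

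Ppfia3, whose product liprin-alpha3 is best known from presynaptic sites, was expressed at a low level. It read 5.74 and 5.12 CPM with overexpression, against 4.26 and 3.64 CPM in control. The groups did not overlap, but the gap between them was little wider than the gap within either group. The counts behind these values were 91 and 86 reads with overexpression and 87 and 79 reads in control. The mean was 5.43 ± 0.437 CPM with overexpression and 3.95 ± 0.443 CPM in control (SD, n = 2 each), with a log2 fold change of 0.38 ± 0.15 (SE, limma adjusted p = 0.031). This call was lost without control 2 (0.29 ± 0.20, limma adjusted p = 0.20), without overexpression 1 (0.31 ± 0.19, limma adjusted p = 0.16) and with no filter on low values (0.38 ± 0.17, limma adjusted p = 0.15). Ppfia3 lies on chromosome 7 from 45339122 to 45367019 on the minus strand, and the antisense gene Mtag2, which shares 112 exon bases with it, reached at most 0.126 CPM.

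Ppfia2 and Ppfia4, the other liprin-alpha genes, which in the mouse are chiefly neuronal, were close to absent. Ppfia2 was listed at 0 in both overexpression libraries and had 2 reads in control 1 and 0 in control 2. Of its annotated 100-base stretches 22.5% also belong to the overlapping genes Acss3 and C230021G24Rik, and those reached at most 0.063 CPM and 0 CPM. Ppfia4 was listed at 0 in both overexpression libraries and had 6 reads in control 1 and 1 read in control 2. A count of 0 allows up to 3 reads, which is 0.189 and 0.179 CPM in overexpression 1 and 2. Ppfia2 lies on chromosome 10 from 106470339 to 106935952 on the plus strand and Ppfia4 on chromosome 1 from 134296783 to 134332928 on the minus strand.

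The liprin-betas were represented by Ppfibp1, whose product liprin-beta1 pairs with liprin-alpha1. It read 325 and 328 CPM with overexpression, against 436 and 431 CPM in control. The libraries of each group nearly coincided, and the overexpression libraries were the lower ones. The mean was 327 ± 1.90 CPM with overexpression and 434 ± 3.60 CPM in control (SD, n = 2 each), a ratio of 0.753. The log2 fold change was -0.41 ± 0.03 (SE, limma adjusted p = 4.2e-10), between -0.42 and -0.37 over 12 alternatives, with 65.0% of tested genes changing by less. Ppfibp2, the other liprin-beta gene, was listed at 0 in overexpression 1 and had 2 reads in overexpression 2, against 0 and 1 read in control 1 and 2. Ppfibp1 lies on chromosome 6 from 146888487 to 147032025 and Ppfibp2 on chromosome 7 from 107595207 to 107748583, both on the plus strand.

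**Figure D2:**
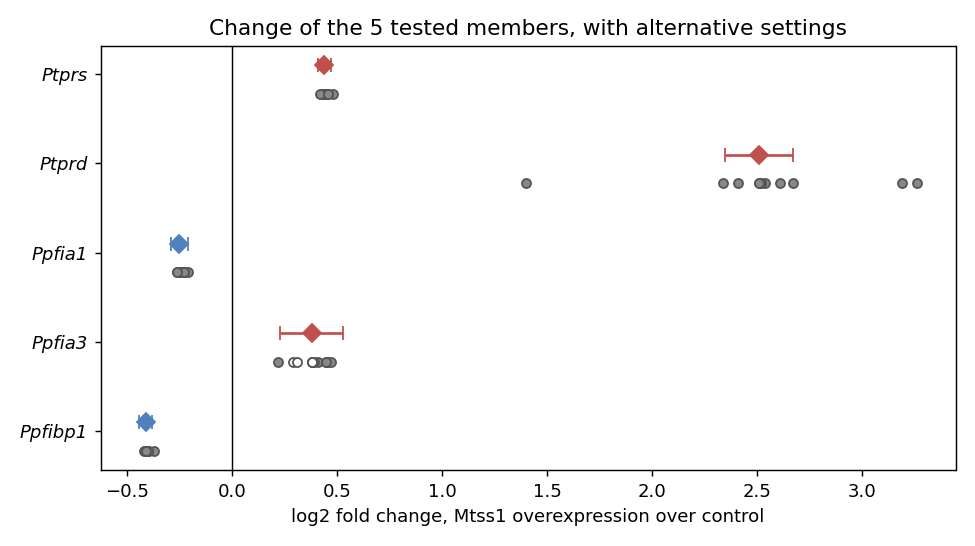
Log2 fold change of Mtss1 overexpression over control on the log2(CPM + 1) scale for the 5 members past the filter (diamonds, main fit, with SE; red higher, blue lower) and under each alternative setting (circles below; open where the adjusted p is over 0.05). No circle crosses 0, Ptprd spreads from 1.40 to 3.26, and open circles occur for Ppfia3.

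To compare genes with each other, CPM was divided by the merged exon length of each gene. Ptprs and Ppfibp1, the most abundant members, stood nearly level with overexpression and apart in control. With overexpression, Ptprs stood at 30.0 ± 0.594 and Ppfibp1 at 29.3 ± 0.171 CPM per kb (SD, n = 2 each), and their second libraries both rounded to 29.5. In control, Ppfibp1 stood at 39 ± 0.323 CPM per kb, above Ptprs at 22 ± 0.326 CPM per kb, with no overlap. Ppfia1 came next in both groups, at 9.0 ± 0.138 CPM per kb with overexpression and 10.7 ± 0.194 CPM per kb in control. Ppfia3 followed at 0.687 ± 0.0553 CPM per kb with overexpression and 0.50 ± 0.056 CPM per kb in control. Ptprd, with 0.497 ± 0.0543 CPM per kb with overexpression, was then the next gene, and in control it stood at 0.0516 ± 0.0154 CPM per kb. With the longest transcript as the length, Ptprd stood at 1.15 ± 0.125 and Ppfia3 at 1.11 ± 0.0892 CPM per kb with overexpression. The order of Ptprd and Ppfia3 with overexpression therefore depended on the length used.

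Within each subfamily a single gene supplied nearly all of the signal in both populations. Ptprs made up 98.4% ± 0.159 of the summed phosphatase level per kb with overexpression and 99.7% ± 0.111 in control (SD, n = 2 each). The share of Ptprd was 1.63% ± 0.143 with overexpression and 0.233% ± 0.0658 in control. For all the width of its change, Ptprd thus remained a small fraction of the LAR-type phosphatase transcripts. The summed phosphatase level was 30.9 and 30.0 CPM per kb with overexpression, against 21.9 and 22.3 CPM per kb in control.

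The liprins moved the other way in sum. Summed liprin-alpha was 9.63 and 9.75 CPM per kb with overexpression, against 11.1 and 11.3 CPM per kb in control, and Ppfia1 held 92.9% ± 0.631 and 95.3% ± 0.838 of it in those groups (SD, n = 2 each). Ppfia3 held 7.09% ± 0.631 with overexpression and 4.46% ± 0.541 in control. With the length of the longest transcript in place of merged exons, those shares of Ppfia3 were 4.84% and 3.02%. Liprin-beta was almost wholly Ppfibp1, with 99.98% with overexpression and 99.99% in control. The ratio of Ppfia1 to Ppfibp1 per kb was 0.305 and 0.309 with overexpression, against 0.269 and 0.280 in control, since Ppfibp1 fell by more. For such single ratios an exact permutation test of 2 against 2 libraries cannot go below a two-sided p of 0.333, so they are given without a test.

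**Figure D3:**
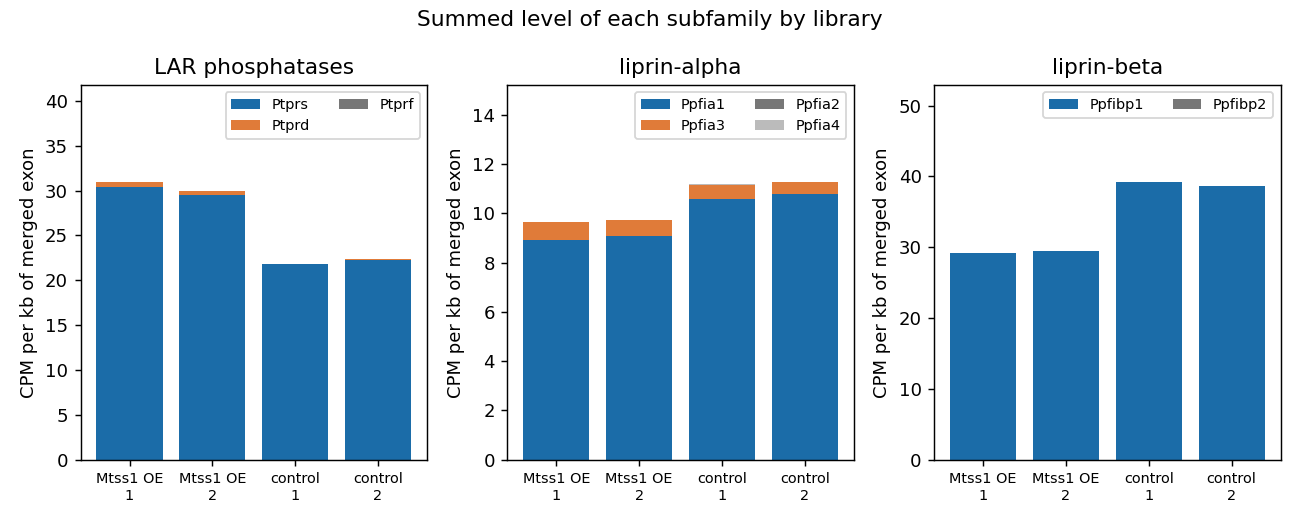
Stacked level of each subfamily in CPM per kb of merged exon, 1 bar per library, with Mtss1 overexpression (Mtss1 OE) 1 and 2 left of control 1 and 2, and colours for the genes. Phosphatase bars reach 30.9 and 30.0 with overexpression against 21.9 and 22.3 in control, while the liprin-alpha and liprin-beta bars are lower with overexpression. Ptprf, Ppfia2, Ppfia4 and Ppfibp2 are too small to be seen.

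Promoter windows were compared because members differed so widely in level. The 250 bases before each annotated start were taken from RefSeq (GRCm38.p6), which matched 8 of the 9 genes, all but Ptprd, with 13 windows. Shown are the abundant genes Ptprs (its upstream start), Ppfia1 and Ppfibp1, and Ptprf, which was barely detected. They are written 5′ to 3′ on the gene's strand, and capitals mark the GC box GGGCGG on either strand, overlapping matches included.
Ptprs: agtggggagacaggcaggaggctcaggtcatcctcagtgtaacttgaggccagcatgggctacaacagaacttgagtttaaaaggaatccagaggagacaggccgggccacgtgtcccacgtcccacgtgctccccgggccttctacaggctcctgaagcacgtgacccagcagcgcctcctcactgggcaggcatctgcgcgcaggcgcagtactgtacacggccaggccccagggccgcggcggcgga
Ppfia1: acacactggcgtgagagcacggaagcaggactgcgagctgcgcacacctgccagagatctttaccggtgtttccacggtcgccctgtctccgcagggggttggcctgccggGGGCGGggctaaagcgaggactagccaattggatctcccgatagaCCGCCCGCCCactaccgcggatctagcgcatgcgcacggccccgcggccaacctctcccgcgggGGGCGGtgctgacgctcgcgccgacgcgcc
Ppfibp1: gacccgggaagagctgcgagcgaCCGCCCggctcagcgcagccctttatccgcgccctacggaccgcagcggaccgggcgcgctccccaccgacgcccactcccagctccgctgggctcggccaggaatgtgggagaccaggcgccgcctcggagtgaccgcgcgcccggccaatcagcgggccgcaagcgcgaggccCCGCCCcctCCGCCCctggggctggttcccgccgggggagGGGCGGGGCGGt
Ptprf: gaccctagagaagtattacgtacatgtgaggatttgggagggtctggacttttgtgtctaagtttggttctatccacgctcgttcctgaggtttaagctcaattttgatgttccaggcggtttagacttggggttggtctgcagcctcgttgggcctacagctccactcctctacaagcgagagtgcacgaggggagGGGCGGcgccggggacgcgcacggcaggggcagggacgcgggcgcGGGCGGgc
The windows lie at chr17:56476481-56476730 (minus strand) for Ptprs, chr7:144553730-144553979 (minus) for Ppfia1, chr6:146888244-146888493 (plus) for Ppfibp1 and chr4:118291398-118291647 (minus) for Ptprf. The Ppfibp1 window held 35 CpG dinucleotides, more than 97.0% of the 32851 promoter windows of the table, whose median was 6. Ppfia1 held 30 CpG and Ppfia3 held 24, while each Ptprs window held 15. Among the barely detected genes, Ptprf held 18, Ppfia2 held 19, and the windows of Ppfia4 held 14 and 6. The windows of Ppfibp2 held 11, 3, 2 and 2, and its downstream ones were the only member windows below that median.

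GC boxes were found in 8 of the 13 windows, against 32.7% of all windows. Each of the 8 genes had at least 1 such window, but no background per gene was computed. Ppfibp1 had 5 matches, Ppfia1 had 4, Ptprf had 2, the upstream window of Ptprs had 0 and its other window had 3. TATAAA on either strand was present in 1 of the 13 windows, a downstream one of Ppfibp2, against 12.4% of all windows. A match describes letters in the window and says nothing on whether a factor binds there.

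Genes for extracellular ligands of LAR-type phosphatases were mostly proteoglycans in these cells, and they moved in both directions. Of 30 listed, 14 passed the filter, 6 rose, 7 fell and 1 did not pass the test (92.9% called, background 66.1%). Their median log2 fold change was 0.01, beside -0.01 over all tested genes. Syndecan-3 (Sdc3), a heparan sulphate proteoglycan, read 317 and 322 CPM with overexpression, against 27.4 and 26.0 CPM in control (log2 fold change 3.53 ± 0.05, SE). Sdc1 (0.73 ± 0.04) and the glypican gene Gpc4 (0.73 ± 0.06), both also of heparan sulphate carriers, rose too. Other carriers of heparan sulphate, named after their values were seen, went either way, with Hspg2 (0.54), Agrn (0.59) and Sdc4 (0.32) higher and Gpc6 (-0.57), Sdc2 (-0.38) and Gpc1 (-0.10) lower. The limma adjusted p was at most 2.2e-10 for Sdc3, Sdc1 and Gpc4 and at most 0.035 for the other 6.

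The largest falls among the ligands were in Vcan, the chondroitin sulphate proteoglycan versican (log2 fold change -1.59 ± 0.05), and in Slitrk5 (-1.36 ± 0.14), which encodes a neuronal adhesion ligand of these receptors. Slitrk5 read 4.35 and 3.81 CPM with overexpression, against 10.7 and 13.4 CPM in control. Il1rap, whose product is a subunit of the interleukin 1 receptor and also binds PTP-delta, fell by 0.58 ± 0.06 on the log2 scale. The limma adjusted p was at most 1.5e-08 for these 3 genes. Of the ligands 8 were listed at 0 in every library.

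Partners and substrates of the phosphatases, cytoplasmic proteins and receptors alike, moved in both directions. Of 17 listed genes, 16 passed the filter, 9 rose, 5 fell and 2 did not pass the test (87.5% called, background 66.1%), and their median log2 fold change was 0.19. The list holds Mtss1 itself, whose rise was set by the overexpression, and without it, in a count added after seeing the data, 8 of 15 tested genes rose and 5 fell (86.7% called), with a median of 0.16. Jup, another of the 9, passed the filter only through the overexpression libraries. The largest rises were in Enah (4.72 ± 0.11), which promotes actin filament elongation, in Arhgap32 (2.88 ± 0.13), a GTPase-activating protein gene, and in the receptor gene Egfr (1.63 ± 0.09). Arhgap32 read 23.1 and 22.1 CPM with overexpression, against 2.55 and 1.89 CPM in control. The falls were led by Trio (-0.55 ± 0.04), a guanine nucleotide exchange factor that binds LAR, and Ctnnb1 (-0.41 ± 0.03), the beta-catenin gene. Mtss1l, the closest relative of Mtss1, read 43.8 and 39.2 CPM with overexpression, against 45.9 and 53.2 CPM in control (log2 fold change -0.25 ± 0.07). The limma adjusted p was at most 2.0e-13 for the 3 rises and 0.0042 for the 3 falls.

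Liprin partners and components of the cortical platforms were also divided. Of 32 listed, 23 passed the filter, 11 rose, 8 fell and 4 did not pass the test (82.6% called, background 66.1%), with a median log2 fold change of 0.09. Erc2, an ELKS-family scaffold of active zones that binds liprin-alphas, read 1.95 and 2.32 CPM with overexpression, against 0.147 and 0.46 CPM in control. It passed the filter only through the overexpression libraries and so had to differ, and with at least 1 CPM asked of every library 9 genes of the list rose in place of 11. Kank3 (1.18 ± 0.18) and Syde2 (0.75 ± 0.12), whose product is a GTPase-activating protein, also rose. S100a4, whose calcium-binding product interacts with liprin-beta1, fell most (-1.51 ± 0.04), ahead of Syde1 (-0.76 ± 0.06) and of the kinesin gene Kif21a (-0.48 ± 0.05). The limma adjusted p was at most 6e-06 for Kank3 and Syde2 and at most 1.5e-08 for these falls. Further platform genes outside the 3 largest were named after their values were seen. On the log2 scale Erc1 rose by 0.13, Phldb2 by 0.49 and Clasp2 by 0.41, while Git1 fell by 0.21 and Clasp1 by 0.19. Kank3 stood at 3.84 and 3.33 CPM with overexpression, against 0.833 and 1.24 CPM in control. The more abundant Kank2, at 110 and 113 CPM with overexpression against 119 and 130 CPM in control, fell by 0.15. Git2, Arhgef7 and Tln1 did not pass the test.

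Receptor phosphatases outside the LAR group were set beside it. Of 18 listed, 8 passed the filter, 2 rose, 4 fell and 2 did not pass the test (75% called, background 66.1%), and the median log2 fold change was -0.21. Ptprj read 56.2 and 56.8 CPM with overexpression, against 35.3 and 39.2 CPM in control (log2 fold change 0.59 ± 0.06), and Ptprg rose by 0.42 ± 0.05. Ptprn, a gene of secretory granules, fell by 0.85 ± 0.06 and Ptpre by 0.80 ± 0.10, and Ptprt, at 1.76 and 1.43 CPM with overexpression against 3.48 and 2.76 CPM in control, fell by 0.66 ± 0.18. The limma adjusted p was at most 3.4e-07 for the 2 rises and 0.0023 for these 3 falls. Among the receptor phosphatases that passed the filter, Ptprd was the one with the largest fitted change in either direction, but the difference between its change and theirs was not tested.

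**Figure D4:**
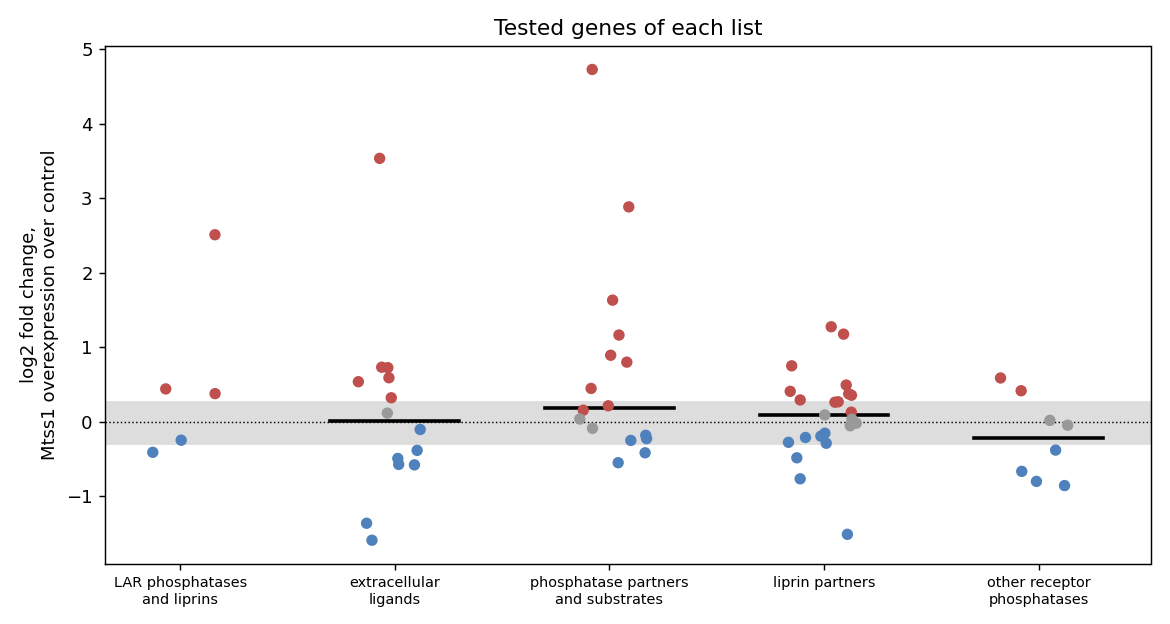
Log2 fold change of Mtss1 overexpression over control for each tested gene of the members and of the 4 lists (red higher, blue lower, grey not past an adjusted p of 0.05; black line, list median, not drawn for the members). The grey band spans the quartiles of all tested genes, -0.29 to 0.27, and each list has genes above and below it.

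Because several of these genes are known from neurons, neural and glial markers were read beside them. Of 8 markers 3 passed the filter. Their sum was 14.8 to 15.8 CPM with overexpression and 10.3 to 10.6 CPM in control, with the neuronal markers Rbfox3 and Snap25 listed at 0 in every library. Syt1, the synaptotagmin gene, read 5.61 and 5.71 CPM with overexpression, against 0.735 and 0.966 CPM in control, and passed the filter only through the overexpression libraries. The neuronal tubulin gene Tubb3 read 8.51 and 9.05 CPM with overexpression, against 7.64 and 6.54 CPM in control, and did not pass the test. The part of these markers in the changes of Ptprd, Erc2 and Slitrk5 was not tested.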

How the data were processed

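The data were gene values from 4 RNA sequencing libraries, 2 of Py8119 cells overexpressing Mtss1 and 2 of control cells. Trizol extraction and paired-end sequencing are recorded in the labels' protocols. The submitters' processing notes name build mm10 and the tools STAR, RSEM and FastQC 0.11.2, without their roles. The deposited values are CPM, an assignment made from the values: columns sum to between 982877 and 1016225. Their scaling, and whether counting used strand, are not given in the sources used. Dividing by the value of 1 read gave whole reads (within 0.005) for 79.6% to 80.5% of nonzero entries, and for every member, with the recovered depths given above.

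The 12510 genes that reached 1 CPM in 2 or more libraries were tested with limma 3.58.1 in R 4.3.3 (mean-dependent prior) on log2(CPM + 1), with Benjamini-Hochberg adjustment over all of them and a threshold of 0.05. The steps were tested on simulated data. Libraries of a group differed by 1.78 (overexpression) and 2.04 (control) times the Poisson value, and they were kept as 2 replicates. That spread does not show whether they were separate cultures. Lengths, overlaps and coding sequences came from GENCODE M21, promoters from RefSeq (GRCm38.p6). The members and gene lists were chosen with earlier results of these data known. Named genes are all members, Mtss1, the up to 3 largest rises and falls past the threshold without group overlap in each of the 4 partner lists, and marker genes, of which 1 past the filter is not reported here. Alternatives covered scaling, filter, pseudocount, limma-voom, a replicate block and leaving out each library.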

Additional observations from a re-analysis of the deposited data

How the results depend on the processing

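Directions of Mtss1 and of the 5 tested members held under all 12 alternatives (11 for Ptprd, which was not tested when all libraries had to reach 1 CPM). The exception in significance was Ppfia3, whose log2 fold change of 0.38 was no longer past the threshold with no filter (0.38), without control 2 (0.29) or without overexpression 1 (0.31). Leaving out 1 library in turn gave 0.29 to 0.47 for Ppfia3, 2.34 to 2.67 for Ptprd, 0.42 to 0.46 for Ptprs, -0.26 to -0.23 for Ppfia1 and -0.42 to -0.40 for Ppfibp1. In those fits a group left with 1 library was assumed to vary like the other. Members called higher numbered 2 or 3 and members called lower 2 in every alternative. Counts over the whole table ran from 3317 to 4362 higher and from 3621 to 4337 lower, and counts in the 4 partner lists moved by at most 2. The labels do not say that equal replicate numbers mark shared cultures, and deviations of same-numbered libraries correlated at -0.02. With the replicate block the log2 fold changes stayed at 2.51 for Ptprd and 0.38 for Ppfia3, and 3 members were called higher and 2 lower. Rescaling to library size moved the median of all genes to 0.02, from -0.01 as deposited. Depth limits the 4 members under the filter, for which 3 reads are 0.138 to 0.189 CPM.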
